A study of Mus musculus with 8 samples.

Results

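The squamous keratins and cornified envelope genes described here were chosen by name. They are the genes whose symbol starts with Sprr or Lce and a digit, together with 28 named keratins, desmosomal cadherins, envelope proteins and enzymes. Of those 28, 26 were measured by probes annotated to 1 symbol only, and Dsg3 and Flg2 were not. With 9 Sprr and 15 Lce genes this gave 50 genes out of 18193 measured. Stratified squamous epithelia such as the epidermis build a tough outer layer as their cells leave the basal layer, stop dividing and become cornified. The cells first fill with keratin filaments joined to desmosomes, and transglutaminases then crosslink small proteins, among them loricrin, involucrin, the small proline-rich proteins (Sprr) and the late cornified envelope proteins (Lce), into an insoluble shell under the membrane. Normal mammary ducts do not cornify, but squamous areas with keratin pearls are known from some mammary tumours.

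The 8 samples were mammary tumours of female mice, FVB/N-Tg(MMTV-PyVT)634Mul/J (genotype MMTV-PyMT), in which the promoter of the mouse mammary tumour virus drives the polyoma virus middle T antigen in the mammary epithelium. In 4 samples the mice had been given vehicle, and in 4 SKI-606, which is bosutinib, a drug that blocks the tyrosine kinases Src and Abl, by gavage at 100 mg/kg in methocellulose and Tween 80. All 8 samples share the transgene, so no normal mammary gland serves as a reference, and neither the age of the mice nor the length of treatment is given in the labels. Each sample was read on 1 Affymetrix array, and since the labels do not list the animals, p-values speak only of how these 8 samples spread, which may be technical. The tumours carried their labelled tissue's markers, as all 10 luminal mammary genes checked had a signal of at least 100 in every sample, with summed signals of 28636 to 34005.

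A signal is the brightness of a probe, recovered from the deposited ratios and quantile normalized between arrays. Differences are log2 fold changes of signal + 16, SKI-606 minus vehicle, ± SE with 4 samples in each group, and the adjusted p is that of limma with Benjamini-Hochberg adjustment over all 45037 probes. These are whole tumours, so more cells of a type and more RNA per cell cannot be told apart. Before any treatment difference is read, 3 samples have to be set apart. SKI-606 samples 1 and 4 had scores of 81.1 and 72.4 on the first principal component over all probes, against -38.5 to -14.8 in the others, and vehicle sample 3 had -81 on the second component, against -2.3 to 35.2. Vehicle sample 3 also had an array median of 23, against 15 to 18 in the others.

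The squamous genes were high in those 3 tumours and mostly low in the other 5. Their summed signal was 2600, 1888, 20951 and 2967 across vehicle tumours 1 to 4 and 29468, 1102, 1525 and 31814 across SKI-606 tumours 1 to 4. A signal of at least 100 was reached by 29 of the 50 genes in vehicle sample 3 and by 31 each in SKI-606 samples 1 and 4, but by 2 to 4 in each of the other 5. For 37 of the 50 genes these were the 3 highest samples, an order found in 3.67% of all genes, and in 35 of 50 when the array medians were set equal in place of quantile normalization. SKI-606 sample 4 was the highest for 21 genes, vehicle sample 3 for 20 and SKI-606 sample 1 for 6. With array medians set equal these counts were 23, 7 and 17, so which of the 3 was the highest depended on the scaling. Such tumours were in both treatment groups, and the groups overlapped in each of the 50 genes.

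**Figure D1:**
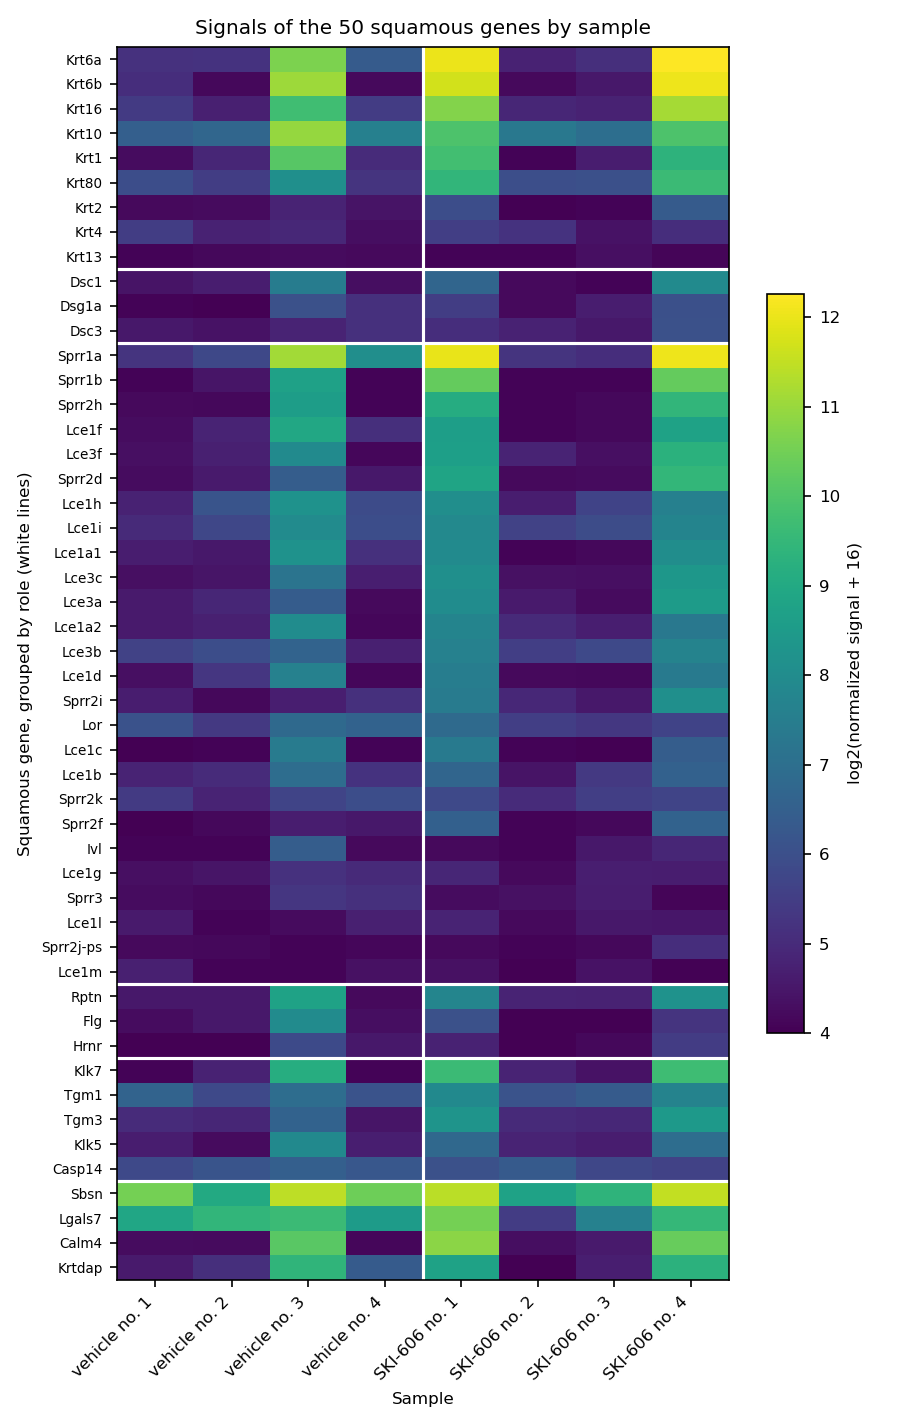
Signals of the 50 squamous genes (rows, grouped by role with white lines between) in the 8 samples (columns), as log2(normalized signal + 16) on the colour scale. Vehicle sample 3 and SKI-606 samples 1 and 4 form 3 bright columns, and 46 of the 50 genes had at most 100 in each of the other 5 samples.

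No squamous gene differed between SKI-606 and vehicle tumours beyond the spread between samples. With limma, 0 of 50 had an adjusted p under 0.05 (0.00% of all 18193 genes were called higher and 0.00% lower), and adjusted p-values ran from 0.608 to 0.999. At an unadjusted p under 0.05 there were also 0 of the 50, against 6.08% of all genes on the higher and 4.34% on the lower side. That count came to 5 when SKI-606 sample 2 was omitted, to 3 when SKI-606 sample 3 was, and to 2 with the 3 tumours left out, with 0 called each time. Over all 45037 probes the count itself moved between 1816 and 4930 across settings. These few genes are therefore not read as a result. In 0 of the 50 did all SKI-606 samples lie above all vehicle samples, or all below, against 2.39% and 2.04% of all genes. The log2 fold change was above 0 for 40 genes and below 0 for 10, with a median of 0.59, where 47.1% of all genes lay above 0 and their median was -0.02. That median rested on which tumours were counted. Leaving out 1 sample at a time, it dropped to 0.13 and 0.10 when SKI-606 sample 1 or 4 was omitted and to 0.27 and 0.315 when vehicle sample 1 or 2 was. It came to 1.27 when vehicle sample 3 was omitted, and to 1.03 and 1.04 when SKI-606 sample 2 or 3 was. It was -0.10 without all 3 of the tumours with high signals, when 15 genes lay above 0 and 35 below. In that setting 2 SKI-606 tumours stood against 3 vehicle tumours.

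**Figure D2:**
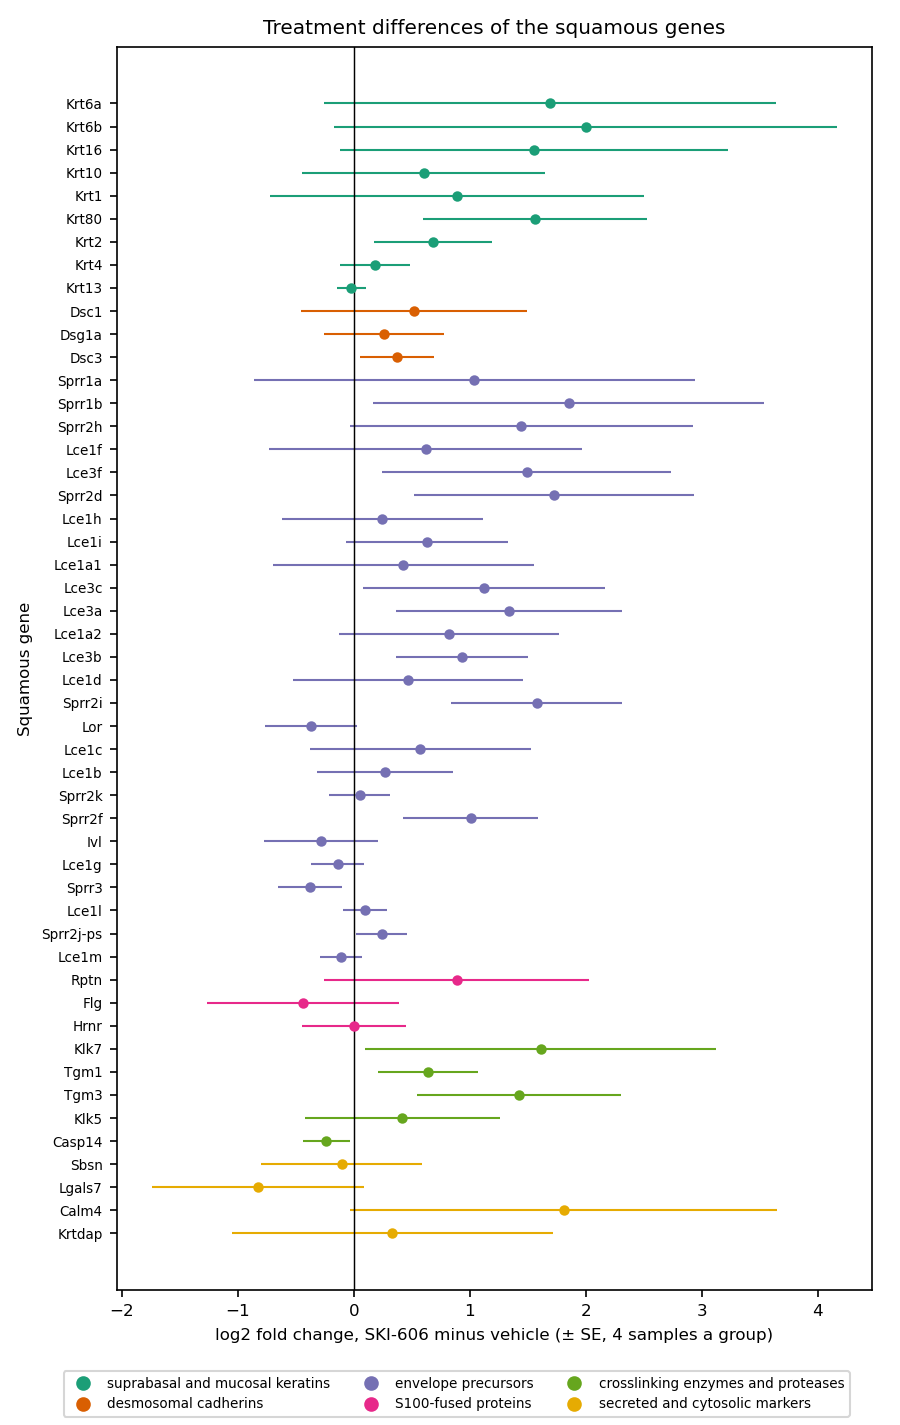
Log2 fold changes of the 50 squamous genes, SKI-606 minus vehicle, on the scale of log2(signal + 16), with bars of 1 SE (4 samples a group) and colours by role. Of the 50 values 40 lie above 0, and 19 of the 27 genes given by sample have an SE larger than the size of their difference, Krt6b and Krt6a among them.

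Krt2, Krt4, Krt13, Dsc3, Sprr2i, Sprr3, Lor, Ivl, Hrnr, Klk5 and Casp14 fall outside the rule for genes given by sample, and their values are given after they were seen.

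Promoter sequences are shown for Sprr, Lce1 and Lce3 genes because these families, which are neighbours in the genome, mostly parted in these tumours, with limits described further on. Those of Krt10 and Flg are shown because both were highest in vehicle sample 3 under each scaling tried. Klk5, Hrnr, Ivl, Lce1g and Sprr3 were too, but their sequences are not shown. In RefSeq's annotation of GRCm38.p6, 28 of the 50 genes, from Lor to Rptn, lie in 1 stretch of 49 protein-coding genes, the epidermal differentiation complex. Each sequence holds the 250 bases before the start site, taken from RefSeq (GRCm38.p6), 5′ to 3′. Capitals mark matches to TGANTCA, a loose form of the AP-1 motif that takes any base (N) in the middle, and to the TATA box motif TATAAA. Each was searched on both strands, with no overlap between them in these windows. In Sprr1b and Flg the match to the loose form reads TGAATCA.
Sprr1a (chr3:92485882-92486131, minus strand): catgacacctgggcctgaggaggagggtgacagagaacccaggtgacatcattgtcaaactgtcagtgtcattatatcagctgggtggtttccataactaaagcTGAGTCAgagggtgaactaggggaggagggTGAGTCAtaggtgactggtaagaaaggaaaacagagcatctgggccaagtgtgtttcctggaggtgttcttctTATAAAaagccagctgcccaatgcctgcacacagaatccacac
Sprr1b (chr3:92438780-92439029, minus strand): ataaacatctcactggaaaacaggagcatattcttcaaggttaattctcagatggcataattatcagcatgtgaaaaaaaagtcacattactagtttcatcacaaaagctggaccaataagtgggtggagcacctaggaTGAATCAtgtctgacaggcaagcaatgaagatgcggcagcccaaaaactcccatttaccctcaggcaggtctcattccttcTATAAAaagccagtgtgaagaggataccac
Sprr2h (chr3:92385435-92385684, plus strand): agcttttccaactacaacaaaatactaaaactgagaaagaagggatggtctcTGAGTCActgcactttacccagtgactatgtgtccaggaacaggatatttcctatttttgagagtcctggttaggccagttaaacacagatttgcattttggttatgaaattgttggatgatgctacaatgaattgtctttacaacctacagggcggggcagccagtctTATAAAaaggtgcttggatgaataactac
Lce3f (chr3:92991967-92992216, plus strand): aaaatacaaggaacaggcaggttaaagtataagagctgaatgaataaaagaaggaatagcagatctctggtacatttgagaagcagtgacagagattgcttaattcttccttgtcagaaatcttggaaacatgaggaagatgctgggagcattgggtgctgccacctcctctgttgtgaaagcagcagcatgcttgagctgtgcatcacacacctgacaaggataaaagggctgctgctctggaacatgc
Lce1h (chr3:92765066-92765315, minus strand): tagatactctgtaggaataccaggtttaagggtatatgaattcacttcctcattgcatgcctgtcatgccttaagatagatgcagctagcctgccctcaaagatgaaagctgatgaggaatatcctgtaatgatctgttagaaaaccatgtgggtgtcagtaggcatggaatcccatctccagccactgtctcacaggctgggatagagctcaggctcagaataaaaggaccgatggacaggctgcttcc
Krt10 (chr11:99389365-99389614, minus strand): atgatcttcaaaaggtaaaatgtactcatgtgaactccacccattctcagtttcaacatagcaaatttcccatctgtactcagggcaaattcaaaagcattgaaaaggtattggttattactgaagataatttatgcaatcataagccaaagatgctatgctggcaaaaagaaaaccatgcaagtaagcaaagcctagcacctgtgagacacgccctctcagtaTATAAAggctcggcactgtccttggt
Flg (chr3:93273296-93273545, plus strand): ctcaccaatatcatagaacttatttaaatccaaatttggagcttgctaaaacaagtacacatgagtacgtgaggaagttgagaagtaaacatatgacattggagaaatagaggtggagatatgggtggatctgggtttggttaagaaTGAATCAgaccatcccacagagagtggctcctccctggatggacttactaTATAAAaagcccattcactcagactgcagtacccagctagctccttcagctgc

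Promoter windows, from 250 bases before to 50 after the start site, were at hand for 39 of the 50 genes, the first listed where a gene had several. A match to TGANTCA was found in 7 of 8 Sprr windows, 0 of 10 Lce1 and 0 of 4 Lce3 windows, against 7.8% of all 32544 windows of the same length. In Sprr1a there were 2 such matches, the first starting 146 bases before the start site, and in Sprr1b there was 1, at 111 bases. The 5 Sprr2 windows held their first match 193 to 198 bases before the start site, a like position in each. A match to TATAAA was found in all 8 Sprr windows, 2 of 10 Lce1 and 0 of 4 Lce3 windows, against 13.6% of all. In Lce1h and Lce3f the letters ATAAAAGG stand near the start site, which TATAAA does not match. The counts thus speak of these exact letters and not of whether a TATA box is absent. Another 3 motifs were searched, on both strands. The Klf motif CCACCC matched 4 of 8 Sprr windows and 0 of 14 Lce windows (31.6% of all), the Grhl motif AACCNGTT 1 of the 39 windows, that of Rptn (2.1% of all), and the Ets motif CCGGAA 0 of the 39 (15.0% of all). Over all 39 windows TGANTCA matched 14 and TATAAA 18. The order among the 3 tumours under quantile normalization was then used, only for genes with a signal of at least 100 in some sample. TGANTCA matched 3 of 12 windows of those with vehicle sample 3 above both SKI-606 tumours and 5 of 13 with it below both. TATAAA matched 5 of 12 and 6 of 13. These counts are close, and a match describes only letters in the window.

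Keratins make the filaments of these cells. Krt6a, Krt6b and Krt16 are made in wounded and fast-growing epidermis. Krt6a had signals of 20.6, 21.4, 1577 and 66.1 across vehicle tumours 1 to 4 and 4162, 11.4, 18.6 and 4903 across SKI-606 tumours 1 to 4. Those of Krt6b were 17.5, 2, 2087.5 and 2.5 across vehicle tumours 1 to 4 and 3304, 2.4, 7 and 4249.8 across SKI-606 tumours 1 to 4. For Krt16, the usual partner of Krt6, they were 26.6, 10.2, 827 and 28.5 in the vehicle and 1679.6, 13.4, 11.4 and 2270.2 in the SKI-606 samples. In each of these genes SKI-606 samples 1 and 4 were the highest, vehicle sample 3 came next and the other 5 samples lay far below, so the groups overlapped. The log2 fold changes were 1.69 ± 1.95 for Krt6a, 2.0 ± 2.17 for Krt6b and 1.55 ± 1.68 for Krt16 (limma adjusted p of 0.843, 0.833 and 0.832). Krt80, a keratin of later differentiation, followed the same order, with signals of 46.5, 28.9, 261 and 22.2 in the vehicle and 678, 48, 48.8 and 775.5 in the SKI-606 samples and a difference of 1.56 ± 0.97.

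Krt1 and Krt10 form the filament pair of the normal suprabasal epidermis. Their order among the 3 tumours was another one. Krt10 had signals of 73.9, 90.4, 1959 and 178 across vehicle tumours 1 to 4 and 967, 141.5, 111.5 and 974 across SKI-606 tumours 1 to 4, so that vehicle sample 3 was the highest. Krt1 stood at 3.4, 13.4, 1091 and 16.5 in the vehicle and 846, 1.1, 9.1 and 636 in the SKI-606 samples, again with vehicle sample 3 on top. With array medians set equal Krt10 kept this order, but Krt1 was highest in SKI-606 sample 1. The log2 fold changes were 0.60 ± 1.05 and 0.89 ± 1.61, with groups that overlapped. Krt2, of the uppermost epidermis, was dim, with at most 66.5. Krt4 and Krt13, the keratin pair of mucosae such as the oesophagus, showed no signal above 30.2 and 4.1 in any sample, and the 3 tumours did not stand out in them.

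Desmosomal cadherins join the cells. Dsc1, of the upper epidermis, had signals of 5.6, 9.1, 163 and 3.6 across vehicle tumours 1 to 4 and 87.6, 2.4, 1.1 and 232 across SKI-606 tumours 1 to 4. The 3 tumours again lay above the rest. Dsg1a was dim at 1.1, 0.2, 50.2 and 19.8 in the vehicle and 29.5, 2.4, 9.1 and 48.9 in the SKI-606 samples, and Dsc3, of lower layers, reached 50.5 in SKI-606 sample 4 and at most 19.8 elsewhere. Their differences were 0.52 ± 0.97, 0.26 ± 0.52 and 0.38 ± 0.32.

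Envelope precursors made up 26 of the 50 genes, and 17 of these had the 3 tumours on top. Sprr1a, an early crosslinked precursor also known as a stress gene, had signals of 21.6, 39.5, 2211.5 and 254 across vehicle tumours 1 to 4 and 4086, 22.2, 17.5 and 4234 across SKI-606 tumours 1 to 4. Vehicle sample 4 lay clearly above the 4 remaining low samples in this gene. Its relative Sprr1b had 1.1, 6.2, 408 and 1 in the vehicle and 1243, 1.1, 1.1 and 1244 in the SKI-606 samples. In the Sprr2 family, Sprr2h had 2.4, 2, 370.5 and 1 in the vehicle and 539.5, 1.1, 2 and 679.6 in the SKI-606 samples, and Sprr2d had 3.4, 8.1, 71.1 and 7 in the vehicle and 441, 2.4, 3 and 687 in the SKI-606 samples. In all 4 genes SKI-606 samples 1 and 4 were the highest. The differences were 1.04 ± 1.90, 1.85 ± 1.68, 1.44 ± 1.48 and 1.73 ± 1.21 in that order. Among genes with lower signals, Sprr2i was the member of smallest unadjusted p, 0.0594, with 157 and 260.3 in SKI-606 samples 1 and 4 and at most 19.8 in the other 6, vehicle sample 3 included (log2 fold change 1.57 ± 0.74, limma adjusted p = 0.608). Sprr3, of mucosal epithelia, reached 23.9 at most.

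Late cornified envelope genes encode small proteins added to the shell last. Of the Lce1 genes, Lce1f had signals of 3.4, 12.4, 479 and 18.6 across vehicle tumours 1 to 4 and 382, 1.1, 2 and 414 across SKI-606 tumours 1 to 4. Lce1h had 11.4, 55.4, 282 and 43.2 in the vehicle and 257, 9.1, 35 and 179 in the SKI-606 samples, Lce1i 15.5, 38.5, 235 and 45.5 in the vehicle and 222, 34, 44.5 and 196 in the SKI-606 samples and Lce1a1 9.1, 7, 281 and 19.8 in the vehicle and 230.1, 1.1, 2 and 249 in the SKI-606 samples. In these 4 genes vehicle sample 3 was the highest, by little, but in none of the 4 with array medians set equal. Of the Lce3 genes, which are known to be induced when the skin barrier is broken, Lce3f had 4.4, 10.2, 232 and 1.6 in the vehicle and 389.7, 12.4, 4.1 and 611 in the SKI-606 samples and Lce3c 4.4, 6.2, 129 and 10 in the vehicle and 259, 4.9, 4.1 and 313 in the SKI-606 samples. Here SKI-606 samples 1 and 4 were the highest. Fold changes were 0.62 ± 1.35, 0.25 ± 0.87, 0.63 ± 0.70 and 0.43 ± 1.13 for the Lce1 genes and 1.49 ± 1.25 and 1.12 ± 1.04 for the Lce3 genes. Many of these genes are near-identical copies, and 8 of the Sprr and Lce probes used have names ending in _x_at or _s_at, which Affymetrix gives to probe sets that can match several sequences, so signals can be shared within a family. Another 3 probes name several Sprr2a genes and were left out.

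Lor and Ivl, the textbook envelope proteins loricrin and involucrin, were dim. The brightest Lor probe had 51.6, 25.2, 98.6 and 80.6 in the vehicle and 101, 30.8, 24.1 and 34.9 in the SKI-606 samples and did not set the 3 tumours apart. A second Lor probe had 58.1 in vehicle sample 3, 34.2 in SKI-606 sample 1 and 6.6 in SKI-606 sample 4. Of the 2 Ivl probes, 1 reached 70.1 in vehicle sample 3 and 13.4 at most elsewhere, and the other had at most 1.2 in these 3 tumours. Their log2 fold changes were -0.37 ± 0.39 and -0.28 ± 0.49.

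Flg, Hrnr and Rptn encode large S100-fused proteins, of which filaggrin bundles keratin and feeds the skin's moisture. Flg had signals of 3.4, 7, 239 and 3.6 across vehicle tumours 1 to 4 and 49.9, 0.2, 0.2 and 22.1 across SKI-606 tumours 1 to 4, so vehicle sample 3 stood well above every other sample. Rptn had 7, 7, 422 and 2.5 in the vehicle and 202, 12.4, 11.4 and 282 in the SKI-606 samples. Its other probes, with at most 24.4 and 26.1 in any sample, did not set the 3 tumours apart. Hrnr was dim, with 42.1 in vehicle sample 3, 11.4 in SKI-606 sample 1 and 28.5 in SKI-606 sample 4. By their brightest probe all 3 genes were highest in vehicle sample 3, but with array medians set equal Rptn was highest in SKI-606 sample 4. The differences were -0.44 ± 0.83 for Flg, 0.89 ± 1.14 for Rptn and 0.00 ± 0.45 for Hrnr, and Flg turned to 0.485 without vehicle sample 3.

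Enzymes of cornification followed both orders. The transglutaminase Tgm3 had signals of 16.5, 13.4, 81.8 and 6.2 across vehicle tumours 1 to 4 and 297.5, 15.5, 14.4 and 341 across SKI-606 tumours 1 to 4, and Tgm1, which anchors the shell in the skin, had 82.5, 40.5, 108 and 53.9 in the vehicle and 227, 53.6, 66.1 and 189.5 in the SKI-606 samples. Tgm1 thus held a signal in every tumour, and its difference was 0.64 ± 0.43, the named member with the smallest SE. For Tgm3 the difference was 1.42 ± 0.88. Klk7, a protease that cuts the links between cornified cells, had 1.1, 11.4, 547 and 1 in the vehicle and 775, 12.4, 5 and 816 in the SKI-606 samples, with a difference of 1.61 ± 1.51. Klk5, which activates it, was highest in vehicle sample 3, with 227 in vehicle sample 3, 94.9 in SKI-606 sample 1 and 107 in SKI-606 sample 4. Casp14, the caspase of cornification, had a brightest probe of 33.1 to 75.4 in all samples, while another probe had 79.8, 43.2 and 27.1 in vehicle sample 3 and SKI-606 samples 1 and 4.

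The last 4 genes encode small markers of keratinocytes. Calm4, a calmodulin-like protein of differentiating skin, was close to all or none, with signals of 3.4, 3.1, 1119 and 1.6 across vehicle tumours 1 to 4 and 1809, 3.6, 8 and 1285 across SKI-606 tumours 1 to 4. Krtdap, secreted from suprabasal cells, had 8, 18.5, 661 and 66.1 in the vehicle and 415, 0.2, 10.1 and 618 in the SKI-606 samples. Sbsn, which encodes suprabasin, had 1479, 499.8, 2772 and 1387 in the vehicle and 2714, 415, 643 and 2889 in the SKI-606 samples, and Lgals7, the galectin of stratified epithelia, had 454, 682, 784 and 352 in the vehicle and 1477, 28.6, 183 and 714.5 in the SKI-606 samples. Sbsn and Lgals7 held signals of at least 352 in all 4 vehicle samples, and both were lowest in SKI-606 sample 2. Log2 fold changes were 1.81 ± 1.84 for Calm4, 0.33 ± 1.38 for Krtdap, -0.10 ± 0.70 for Sbsn and -0.83 ± 0.91 for Lgals7. The 23 squamous genes not given by sample under the rule for named genes had differences between -0.38 and 1.58, with 16 above 0 and 7 below.

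The 3 tumours with high squamous signals did not have the same mix of genes. This contrast was chosen after the values were seen and concerns 1 vehicle and 2 SKI-606 tumours, so it has no test. It covers the 35 genes with a signal of at least 100 in some sample. Vehicle sample 3 was above both SKI-606 tumours in 14 of them and below both in 17, but above both in 3 and below both in 26 with array medians set equal. In the Lce1 family it was above both in 8 of 8 (0 of 8 with array medians set equal), in Lce3 below both in 4 of 4 and in Sprr below both in 5 of 5. Sprr2d, Sprr2i, Lce3a and Lce3b reached 100 only in the SKI-606 tumours and Lce1b only in vehicle sample 3, so the cut itself fixed their direction. The same held outside these families for Tgm3, which reached 100 only in the SKI-606 tumours, and Flg, only in vehicle sample 3. Without the cut, vehicle sample 3 was below both in 7 of 9 Sprr genes and above both in 1. It was above both in 9 of 11 Lce1 genes and below both in 1. With the cut and on the log2 scale, vehicle sample 3 minus SKI-606 sample 1 lay between 0.05 and 0.32 for the Lce1, between -1.64 and -0.71 for the Lce3 and between -2.72 and -0.52 for the Sprr genes. Against SKI-606 sample 4 the ranges were 0.17 to 1.01, -2.15 to -1.05 and -3.40 to -0.85. The direction of the Lce1 genes thus depended on the scaling, and with array medians set equal vehicle sample 3 was below both in 6 of 8. For the genes counted here the gap between the families did not. With array medians set equal the Lce1 range against SKI-606 sample 1 was -0.55 to -0.29, and those of Lce3 and Sprr were -2.16 to -1.36 and -2.92 to -1.19. The probes left out for naming several Sprr2a genes did not follow the Sprr order. One had 489.6 in vehicle sample 3 and 369.1 and 540.4 in SKI-606 samples 1 and 4 after quantile normalization. Another had 175.1, 158.5 and 226.9, so vehicle sample 3 lay between the SKI-606 tumours in both. The last had at most 9.1 in any sample. Under quantile normalization 7 other genes, Flg, Klk5, Rptn, Krt10, Dsc1, Krtdap and Krt1, lay above the Lce1 range against SKI-606 sample 1, and Krt6a, Krt6b, Krt16, Krt80 and Tgm3 lay within the Sprr range against both tumours.

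The other genes of cornification, taken from 6 lists, held no gene past the threshold. Among proteases, inhibitors and deiminases, 11 of 17 genes had the 3 tumours on top, and 15 lay above 0, with a median difference of 0.56. Cst6, an inhibitor of cathepsins in cornified cells, had signals of 38.9, 25.2, 2750.4 and 1911.5 across vehicle tumours 1 to 4 and 2532, 17.5, 36.1 and 3294.5 across SKI-606 tumours 1 to 4, and so was also high in vehicle sample 4. The protease genes St14 and Blmh, in contrast, had differences of 0.40 ± 0.15 and -0.23 ± 0.19 and held high signals in every sample. Of 20 other suprabasal genes 14 had the 3 tumours on top and 17 lay above 0 (median 0.53). Fabp5, a fatty acid binding protein, had a difference of 0.04 ± 0.37, the gap junction gene Gjb2 of -0.71 ± 0.45 and Dmkn, a secreted suprabasal protein, of 0.43 ± 0.78. Of 8 alarm genes of stressed keratinocytes 6 had the 3 tumours on top and 7 lay above 0 (median 1.01). S100a8, also a neutrophil gene, had a difference of 0.50 ± 0.87, the protease inhibitor gene Slpi of 1.31 ± 0.65 and S100a9 of 2.22 ± 1.44.

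Scaffold and desmosome genes had the 3 tumours on top in 6 of 10, and 8 lay above 0 (median 0.35). Jup, encoding plakoglobin, had a difference of 0.24 ± 0.26, the p53 target Perp of 0.30 ± 0.45 and desmoplakin's gene Dsp of 0.62 ± 0.64. Of 20 barrier lipid genes 11 had the 3 tumours on top and 14 lay above 0 (median 0.30). Abhd5, a lipase activator that fat cells use too, had a difference of -0.73 ± 0.30, the fatty acid transporter gene Slc27a4 of -0.03 ± 0.20 and Smpd1, encoding acid sphingomyelinase, of 0.55 ± 0.22. Among 14 regulators of the programme 4 had the 3 tumours on top and 9 lay above 0 (median 0.14). The transcription factor genes Cebpb and Cebpa had differences of 0.20 ± 0.15 and -0.02 ± 0.20 and the receptor gene Notch3 of 0.42 ± 0.13. Klf4, a factor needed for the skin barrier and chosen after its values were seen, had 156, 91.4, 395.5 and 83.8 in the vehicle and 655, 133, 107 and 932 in the SKI-606 samples. Of the 89 genes in all 6 lists 0 had an adjusted p under 0.05 in limma. At an unadjusted p under 0.05 there were 5 higher (5.62%) and 1 lower (1.12%), against 6.08% and 4.34% of all genes.

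Markers of other cells moved with the squamous genes in part. Of 19 hair follicle genes 17 had the 3 tumours on top, with summed signals of 232, 198, 5626 and 274 in the vehicle and 15732, 172, 135 and 20845 in the SKI-606 samples. The inner root sheath keratin genes Krt73, Krt27 and Krt25 had the highest mean signals of the list, at 1171, 816 and 832 in vehicle sample 3. Basal keratinocyte genes summed to 3349, 3356, 5712 and 3603 in the vehicle and 9840, 2367, 3212 and 11684 in the SKI-606 samples, but only 3 of 8 had the 3 tumours on top. Krt14, the brightest of them, had 946, 1039, 2557 and 1432 in the vehicle and 5265, 290.4, 825 and 5703.5 in the SKI-606 samples. Krt15, chosen after its values were seen, had 383.8 in vehicle sample 3 but 31.4 and 21.4 in SKI-606 samples 1 and 4. Myoepithelial genes, some of which also mark smooth muscle and activated fibroblasts, summed to 931, 1092, 1914 and 1567 in the vehicle and to 6633, 1659, 1266 and 4841 in the SKI-606 samples. The same 3 tumours were the highest in this sum, but only 1 of 6 genes had them on top. By mean log2 signal, vehicle sample 3, at 6.83, lay below vehicle sample 4, at 7.16, and SKI-606 sample 2, at 7.30. Melanocyte genes, those of the skin's pigment cells, were at most 46.8 for any of 7 genes in any sample, and their sum was 87 to 140 in the vehicle and 90 to 111 in the SKI-606 samples. The 2 sebaceous gland genes measured reached 45.1 at most. Luminal genes were about as high in the 3 tumours as in the others, at 30671, 33315 and 28636 against 29758 to 34005.

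**Figure D3:**
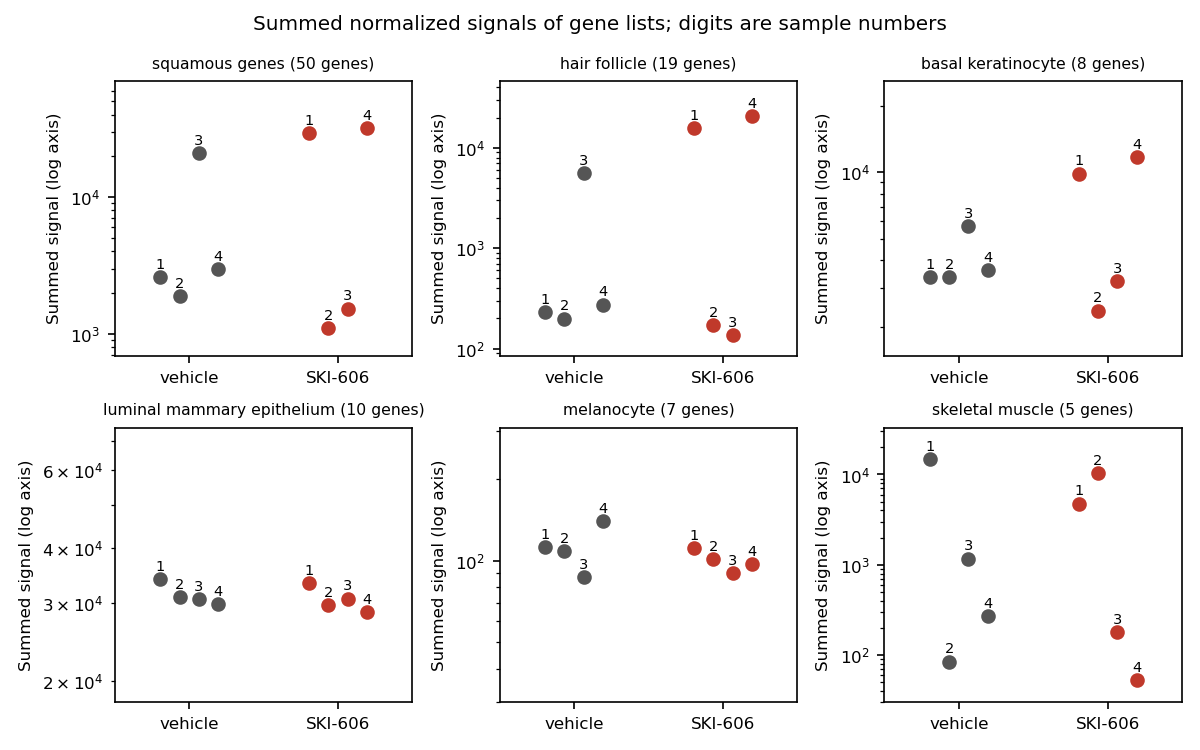
Summed normalized signals (log axis) of 6 gene lists in the vehicle and SKI-606 samples, 1 point a sample with its number. The sums of squamous, hair follicle and basal keratinocyte genes share the 3 highest samples, vehicle 3 and SKI-606 1 and 4, whereas those of luminal, melanocyte and muscle genes do not. Only 3 of the 8 basal keratinocyte genes have these samples on top one by one.

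Non-epithelial lists followed other orders. Fibroblast genes summed to 12069 to 14897 in the vehicle and to 26788, 20634, 15744 and 26683 in the SKI-606 samples, lowest in vehicle sample 3. Macrophage genes summed to 2460 to 3894 and to 6296, 3777, 4020 and 7832, again lowest in vehicle sample 3. Endothelial genes summed to 288 to 458 and to 760, 398, 370 and 767, and T cell genes to 41 to 114 and 66 to 119. Skeletal muscle genes were highest in vehicle sample 1 and SKI-606 sample 2, at 14864 and 10358, both with low squamous signals. Next came SKI-606 sample 1 at 4770 and vehicle sample 3 at 1173, both with high squamous signals. SKI-606 sample 4, also with high squamous signals, had 53. Adipocyte genes were highest in SKI-606 sample 2, at 4916. The share of these cells in the squamous signals was not tested.

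**Figure D4:**
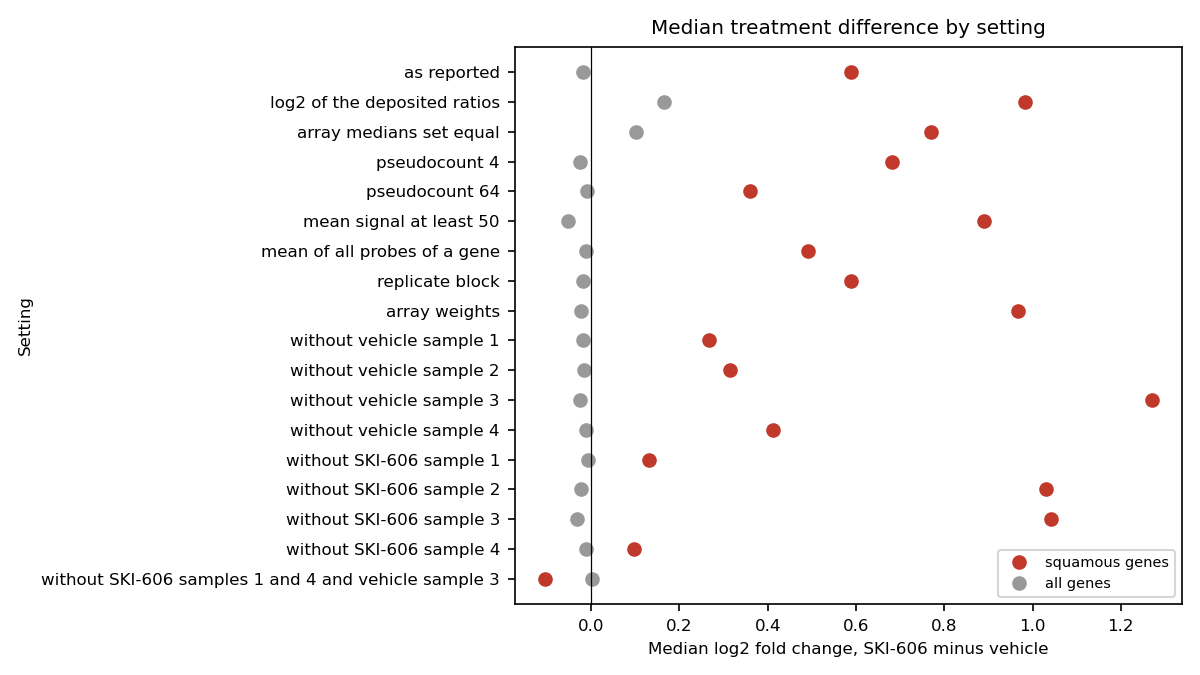
Median log2 fold change, SKI-606 minus vehicle, of the squamous genes and of all genes, as reported and under each alternative setting or sample left out. The median of the squamous genes moves between -0.10 and 1.27 with the samples counted, while that of all genes stays between -0.05 and 0.16.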

How the data were processed

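Total RNA was labelled by the Affymetrix protocol, per the labels' protocols. The deposited values are linear ratios. Judged from the values, the authors divided each signal by its array's median and then by the probe's median over the arrays, or by a constant for probes of low signal. The software is not given in the sources used here. Each probe's signals were taken to be the lowest integers that fit its ratios within 0.002 (or a relative 3e-07), which returned all 45101 probes within 0.0001. Of 5000 simulated probes 99.82% came back exactly, so a few may be off by a common factor.

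Without 64 control probes, signals were quantile normalized, 16 was added and log2 taken, which understates the differences of dim genes. limma 3.58.1 (R 4.3.3) was run on 45037 probes, and Benjamini-Hochberg adjusted p-values under 0.05 were called. The number of arrays limits the precision. Genes were named by the platform annotation (34945 probes had 1 symbol, 932 several, and 9160 are unnamed here), and a gene's probe of highest mean signal stands for it. Values by sample are given for the 24 squamous genes of highest mean signal and for more where a role had fewer than 2. From each pathway list the 3 genes of highest mean signal are named. Members, lists and roles were chosen with earlier results of these data known. The alternatives were other scalings, pseudocounts, a filter on low signals, probe averages, a replicate block, array weights and samples left out.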

Additional observations from a re-analysis of the deposited data

Results flagged for a closer look

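In vehicle sample 3, the values of 13 named squamous genes stood far from those of the other 3 vehicle samples on the log2 scale, with a ratio of gap to range above Dixon's critical value. The signals there were 2087.5 for Krt6b, 827 for Krt16, 1091 for Krt1, 1119 for Calm4 and 547 for Klk7. They were 408 for Sprr1b, 370.5 for Sprr2h, 71.1 for Sprr2d, 232.0 for Lce3f and 129.0 for Lce3c. Rptn had 422, Dsc1 163 and Flg 239. In all, 54 groups of 4 samples were checked, of which chance flags about 1 in 20, and the values of these genes in 1 sample are not independent. The SKI-606 values of the named genes held no such value.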

How the results depend on the processing

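All settings called 0. At an unadjusted p under 0.05 the fits on 45037 probes had 1816 to 4930 (3771 as reported), that on 14947 brighter probes had 1693 and that on the probe averages of 18193 genes had 1687. Among the 50 squamous genes there was 1 with the replicate block and 1 with array weights. The median of the squamous genes was 0.59, ranged from 0.10 to 1.27 with 1 sample left out, and was -0.10 without SKI-606 samples 1 and 4 and vehicle sample 3. Setting the array medians equal or using the log2 of the deposited ratios moved the median of all genes from -0.02 to 0.10 and 0.16 and that of the squamous genes to 0.77 and 0.98. With a pseudocount of 64 it was 0.36 and over the 33 squamous genes with a mean signal of at least 50 it was 0.89. Same-numbered samples did not deviate together (correlations of -0.004, 0.13, -0.27 and -0.13), and the replicate block left the median at 0.59 and called 0 probes, with 3856 at an unadjusted p under 0.05. Signs turned in 43 of 457 values of named genes, none of them called, and the cause was not tested. Without the 3 tumours the log2 fold changes were -1.21 for Sprr1a, -0.65 for Krt6a, -0.12 for Krt6b and Sprr1b, -0.37 for Krt16, -0.35 for Krt1, -0.98 for Krtdap, -0.019 for Sprr2h, -0.59 for Lce1f, -0.24 for Sprr2d, -0.45 for Lce1h, -0.63 for Lce1a1, -0.15 for Lce3c, -0.31 for Dsc1 and -0.005 for Dsg1a. With the deposited ratios Sbsn was 0.038, Krtdap -0.38 and Lce1a1 -0.11, and Sbsn was 0.041 with equal medians, 0.034 over all its probes and 0.19 with array weights. With 1 sample left out, Krtdap lay between -0.54 and 1.36, Lce1h lay between -0.28 and 0.91, Dsg1a lay between -0.039 and 0.66, Sbsn lay between -0.56 and 0.40, Flg lay between -0.84 and 0.48, Sprr1a lay between -0.10 and 2.21, Krt1 lay between -0.042 and 2.27, Lce1f lay between -0.16 and 1.71, Lce1a1 lay between -0.24 and 1.32, Lgals7 lay between -1.57 and 0.11 and Dsc1 lay between -0.23 and 1.30. Signals below about 20 lie near the floor, so differences of dim genes such as Krt13 or Lce1m are not measured well.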
